A study of Canis lupus familiaris with 4 samples.

Results

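Lipid storage in a fat cell, and in the milk-secreting cell of the mammary gland, runs through a short chain of proteins. Fatty acids are released from blood lipoproteins by LPL, enter the cell with the help of CD36, are activated by ACSL1 and are built into triglyceride by DGAT2. The triglyceride is kept in droplets coated by perilipins such as PLIN4, and is broken down again by PNPLA2 and then LIPE. PPARG is the nuclear receptor that drives fat cell differentiation, and RBP4 is a secreted carrier of retinol made in liver and fat. These 9 genes were chosen by name, as rows of the count tables, with earlier results of these data known. All 9 were found among the 11277 genes listed. None is restricted to fat cells. CD36, for example, is also made by muscle, macrophages and capillary endothelium, and LPL by muscle and macrophages.

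RNA was sequenced from mammary ductal carcinoma (libraries T1 and T2) and from non-tumor mammary tissue next to it (libraries C1 and C2). The tissue came from radical mastectomies of 6 female dogs of different breeds, not neutered and aged 5 to 14 years. Each of the 4 libraries was a pool of 3 dogs, and by the study's account T1 and C1 came from the same dogs (pool 1), as did T2 and C2 (pool 2). An n of 2 therefore counts pools, the spread between single dogs is not seen, and p-values measure the spread between these pools only. The counts are whole numbers, with totals of 35496260 in T1, 3236218 in T2, 32352002 in C1 and 4027367 in C2. The smaller totals of pool 2 limit what can be said of weakly expressed genes. Levels are given as CPM, that is, counts scaled to a common library total after TMM normalization, on which 1 count was worth 0.0286 CPM in T1, 0.297 in T2, 0.0339 in C1 and 0.232 in C2.

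The name fat cell gene could not be checked against fat cells in these tables. Of 12 genes listed as defining fat cells (ADIPOQ, LEP, FABP4, PLIN1, CIDEC, CFD, AQP7, TRARG1, RETN, PCK1, GPD1 and THRSP), 0 are rows of the tables under these symbols, so they were not analysed here. Of the genes in the tables, 1148 carry only an Ensembl identifier and were not matched to symbols. The same limit holds for every gene looked up by symbol below. The 9 genes are therefore called lipid storage genes in what follows. The 9 genes together took 0.0214% of all counts in T1 and 0.0266% in T2, against 0.0368% in C1 and 0.0455% in C2. Their summed level was 218 CPM in T1 and 256 CPM in T2, against 403 CPM in C1 and 425 CPM in C2, so both carcinoma libraries lay below both non-tumor libraries. The log2 ratio of the sums was −0.81. It was −0.37 with CD36 left out, since CD36 alone held 13.7% of the sum in T1 and 9.53% in T2, against 37.1% in C1 and 32.0% in C2.

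Carcinoma was compared with non-tumor tissue by edgeR's quasi-likelihood test, and the Benjamini-Hochberg adjustment covered every gene in the tables. A call needed an adjusted p under 0.05 together with a log2 fold change of 1 or more in size. Of the 9 storage genes, CD36 and RBP4 were called lower in carcinoma, where 5.24% of all genes were called lower. In the higher direction 0 storage genes had an unadjusted p under 0.05, and the share of all genes at that threshold is not given here. No storage gene was called higher by edgeR or by DESeq2, where edgeR called 4.62% of all genes higher. That count of 0 is for the fits without a block on all 4 libraries, and with the replicate block, which pairs the libraries of the same dogs, 1 storage gene (PLIN4) was called higher. ACSL1 also had an adjusted p under 0.05, with a smaller fold change, a threshold that 13.9% of all genes passed at any fold change. By library, 5 storage genes (CD36, RBP4, PPARG, ACSL1 and LPL) had both carcinoma libraries below both non-tumor libraries, as did 28.0% of all genes. PLIN4 had both carcinoma libraries above both non-tumor libraries, as did 29.6% of all genes, and DGAT2, PNPLA2 and LIPE overlapped. The median log2 fold change was −0.25 for the 9 genes and 0.03 for all genes. Exact permutation of 2 against 2 libraries (two-sided) reaches no p smaller than 0.333, so each call rests on the model fitted across genes.

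**Figure D1:**
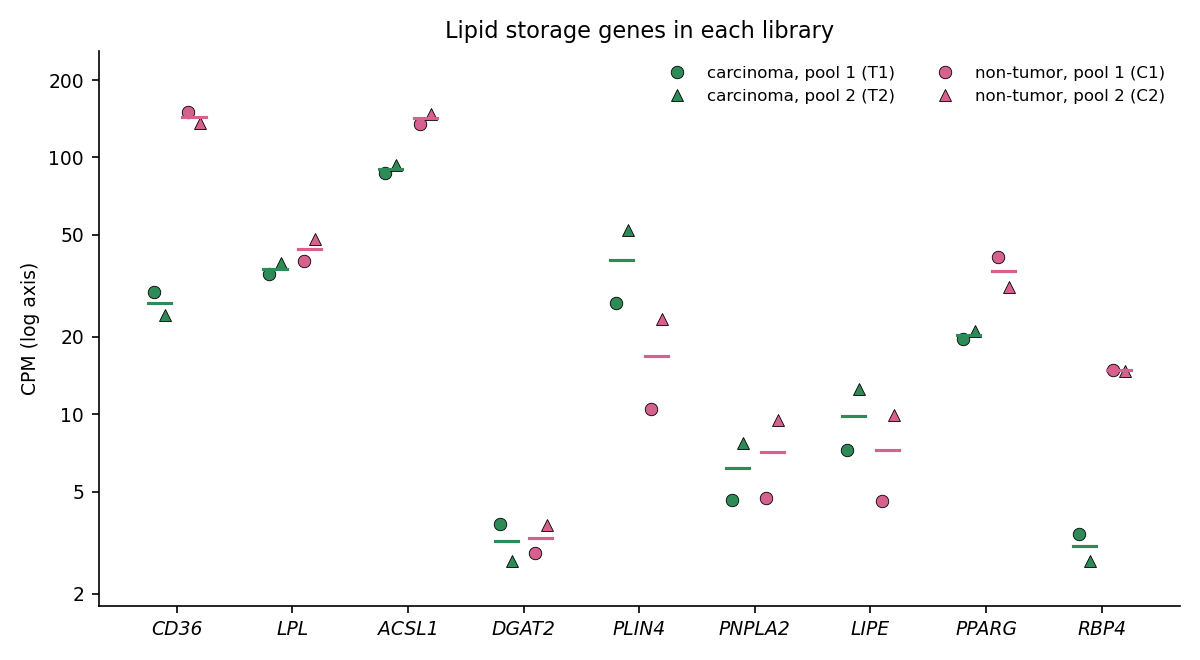
CPM (log axis) of the 9 lipid storage genes in each library, carcinoma in green and non-tumor in pink, circles for pool 1 and triangles for pool 2, with a line at the mean of the 2 pools. CD36 lies at 24.4 and 29.9 CPM in carcinoma and at 136 and 150 CPM in non-tumor tissue, while the points of LIPE and PNPLA2 are split by pool rather than by tissue.

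The fatty acid receptor CD36 showed the largest difference of the 9 genes. It had 29.9 CPM in T1 and 24.4 CPM in T2, against 150 CPM in C1 and 136 CPM in C2. The carcinoma libraries stood far below the non-tumor libraries, and the pools of each tissue lay close together. CD36 averaged 27.1 ± 3.90 CPM in carcinoma and 143 ± 9.53 CPM in non-tumor tissue (SD, n = 2 each), a log2 fold change of −2.37 with a standard error of 0.15 (adjusted p = 0.00209). In a bulk sample, fewer cells of a type and less RNA per cell cannot be told apart. Within pool 1 the ratio of carcinoma to non-tumor was 0.200 (95% interval 0.187 to 0.214), and within pool 2 it was 0.179 (95% interval 0.140 to 0.226). These exact intervals, from 1045 and 4416 counts in pool 1 and from 82 and 587 counts in pool 2, cover counting error only.

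CD36 is also made by other cell types, whose marker genes were measured beside it. The counts of markers called lower stand beside the 5.24% of all genes called lower. Of 6 measured blood endothelial markers of 10 listed, 4 were called lower, and their summed level was 316 CPM in T1 and 313 CPM in T2, against 688 CPM in C1 and 705 CPM in C2. Of 10 measured striated muscle markers of 13 listed, 9 were called lower. The 10 summed to 42.9 CPM in T1 and 74.9 CPM in T2, against 1941 CPM in C1 and 3074 CPM in C2. The largest part of the non-tumor sums was TTN, at 1472 CPM in C1 and 2462 CPM in C2. The largest part in T2 was TNNI2, at 41.9 CPM. Of 8 measured macrophage markers of 11 listed, 1 was called lower, with sums of 352 CPM in T1 and 398 CPM in T2, against 519 CPM in C1 and 542 CPM in C2. Fibroblast markers, 3 of 6 measured called lower, summed to 1806 CPM in T1 and 2288 CPM in T2, against 5614 CPM in C1 and 6088 CPM in C2. Luminal epithelial markers stood closer together in sum, at 1057 CPM in T1 and 1122 CPM in T2, against 1302 CPM in C1 and 1208 CPM in C2. The largest part of that sum was CDH1, at 514 to 670 CPM. Of the 5 measured, 1 was called lower, ELF5, with 30.4 CPM in T1 and 44.9 CPM in T2, against 187 CPM in C1 and 223 CPM in C2. Its log2 fold change was −2.48 (adjusted p = 0.00430). On the log2 scale the ratio of the sums was −1.15 for endothelium, −0.50 for macrophages, −1.52 for fibroblasts and −5.41 for striated muscle. The markers of a cell type did not all go one way, since KDR of endothelium, C1QC and MSR1 of macrophages and TNNI2 of striated muscle had log2 fold changes of 0.03, 0.32, 0.05 and 0.45, none past the test. The part of these cell types in the differences of CD36 and of the other storage genes was not tested.

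**Figure D2:**
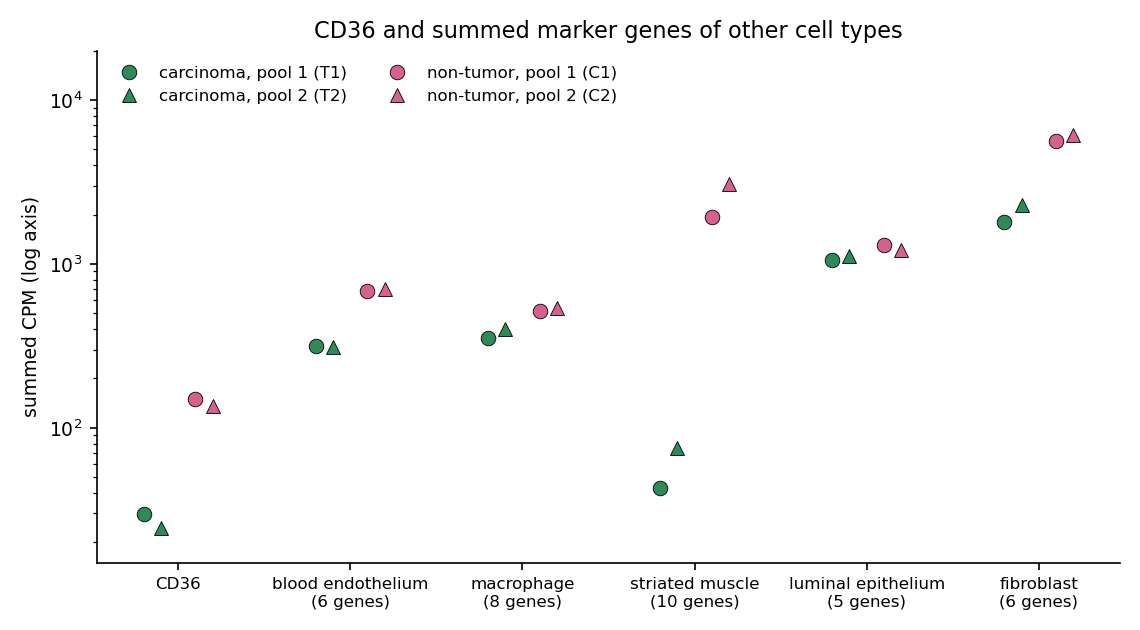
CPM of CD36 and summed CPM of the measured marker genes of 5 cell types (log axis), by library, carcinoma in green and non-tumor in pink, circles for pool 1 and triangles for pool 2. Striated muscle markers are at 42.9 and 74.9 CPM in carcinoma and at 1941 and 3074 CPM in non-tumor tissue, and luminal epithelial markers are within 1057 and 1302 CPM in all 4 libraries.

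LPL is the lipase that frees fatty acids from circulating triglyceride. It had 35.1 CPM in T1 and 38.7 CPM in T2, against 39.6 CPM in C1 and 48.2 CPM in C2. The carcinoma libraries lay below the non-tumor libraries, but T2 and C1 were nearly level, and LPL did not pass the test (log2 fold change −0.25, standard error 0.17, adjusted p = 0.412). With the replicate block its adjusted p was 0.0371 at −0.21, below the fold asked of a call. The within-pool ratios were 0.888 (95% interval 0.819 to 0.962) in pool 1 and 0.802 (95% interval 0.639 to 1.00) in pool 2. LPL spanned the narrowest range of the 9 genes, the highest library being 1.37 times the lowest.

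ACSL1 links imported fatty acids to coenzyme A. It had 86.6 CPM in T1 and 93.7 CPM in T2, against 135 CPM in C1 and 148 CPM in C2. Both carcinoma libraries were lower, and the within-pool ratios were close to each other, at 0.641 (95% interval 0.611 to 0.672) in pool 1 and 0.632 (95% interval 0.551 to 0.725) in pool 2. The log2 fold change was −0.65 ± 0.12 (SE, adjusted p = 0.0243), short of the fold asked of a call. With any single library left out the adjusted p of ACSL1 was 0.0519 to 0.111.

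DGAT2, which adds the last acyl chain to triglyceride, had few counts. It had 3.75 CPM in T1 and 2.68 CPM in T2, against 2.88 CPM in C1 and 3.71 CPM in C2, from 131, 9, 85 and 16 counts. The tissues overlapped, and the pools went opposite ways, with a ratio of 1.30 (95% interval 0.984 to 1.73) in pool 1 and 0.722 (95% interval 0.281 to 1.73) in pool 2. A difference in DGAT2 was not detectable at this depth (log2 fold change 0.08, standard error 0.35, adjusted p = 0.907).

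**Figure D3:**
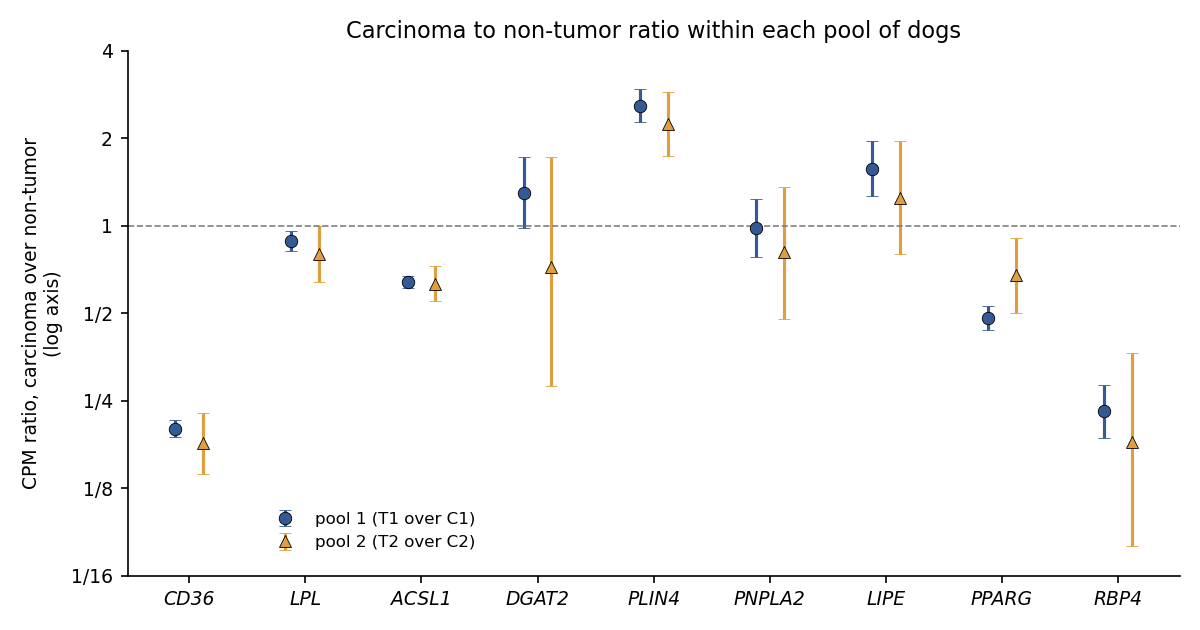
Ratio of carcinoma to non-tumor CPM within pool 1 (T1 over C1, circles) and within pool 2 (T2 over C2, triangles) for each storage gene on a log axis, with exact 95% intervals for counting error and a dashed line at equal levels. CD36 and RBP4 lie between 0.179 and 0.230 in both pools and PLIN4 at 2.59 and 2.24, while DGAT2 lies above the line in pool 1 and below it in pool 2.

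PLIN4, a perilipin that coats lipid droplets of fat cells and also occurs in muscle, was the storage gene with the largest positive fold change. It had 27.1 CPM in T1 and 52.3 CPM in T2, against 10.5 CPM in C1 and 23.4 CPM in C2. Both carcinoma libraries were above both non-tumor libraries, but T1 and C2 were close, since pool 2 was higher than pool 1 in each tissue. PLIN4 averaged 39.7 ± 17.9 CPM in carcinoma and 16.9 ± 9.16 CPM in non-tumor tissue (SD, n = 2 each), and did not pass the test (log2 fold change 1.26, standard error 0.51, adjusted p = 0.192). Within the dogs of a pool the ratio was 2.59 (95% interval 2.28 to 2.95) in pool 1 and 2.24 (95% interval 1.74 to 2.88) in pool 2. When the pool entered the fit as a replicate block, PLIN4 was called higher (log2 fold change 1.31, adjusted p = 3.74e-23). In that paired fit, which has 1 residual degree of freedom, 7.09% of all genes were called higher and 6.83% lower. With no block, the log2 fold change of PLIN4 depended on single libraries. It was 0.68 without C1 (adjusted p = 0.540), 0.73 without T2 (adjusted p = 0.469), 1.64 without T1 (adjusted p = 0.0833) and 1.89 without C2 (adjusted p = 0.0467), the last a call.

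The rows of PLIN4, DGAT2 and CD36 may cover more than the gene. Each row carries a gene length, which for most genes is close to the whole span, introns included (median ratio 0.970 to the RefSeq span of the same symbol over 9411 matched genes). For PLIN4 the length was 124855 bases, 9.28 times the RefSeq span, and 0.839% of matched genes had a larger ratio. For DGAT2 the ratio was 4.65, for CD36 it was 2.59, and for the other 6 storage genes it lay between 0.928 and 1.15. Within 1 table length of PLIN4, RefSeq places 12 other coding genes, among them its relative PLIN5. Of these, 4 are rows of the tables, namely DPP9, UBXN6, CHAF1A and SH3GL1, with log2 fold changes of 0.74, −0.57, −0.18 and 0.23 (adjusted p from 0.333 to 0.781), smaller than the 1.26 of PLIN4. For CD36 no other coding gene lay within that distance. Whether reads of neighboring genes entered the PLIN4 and DGAT2 counts was not tested, and the sources used here do not give the genome build of the tables.

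The lipases that empty the droplet did not pass the test. PNPLA2, which takes the first fatty acid from triglyceride, had 4.66 CPM in T1 and 7.73 CPM in T2, against 4.74 CPM in C1 and 9.50 CPM in C2. LIPE, the hormone-sensitive lipase that acts on the diglyceride left behind, had 7.24 CPM in T1 and 12.5 CPM in T2, against 4.61 CPM in C1 and 9.97 CPM in C2. In both genes the order of the libraries followed the pool, with each pool 2 library above each pool 1 library. The log2 fold change was −0.21 ± 0.49 (SE, adjusted p = 0.814) for PNPLA2 and 0.46 (standard error 0.51, adjusted p = 0.608) for LIPE. Within pools, PNPLA2 had ratios of 0.984 (95% interval 0.780 to 1.24) and 0.814 (95% interval 0.478 to 1.36) in pools 1 and 2. LIPE had a ratio of 1.57 (95% interval 1.27 to 1.95) in pool 1 and of 1.25 (95% interval 0.799 to 1.96) in pool 2. With the replicate block LIPE had an adjusted p of 0.00544 at a log2 fold change of 0.56, below the fold asked of a call.

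The droplet and lipolysis genes had the largest differences between pools among the 9 genes. On the log2 scale, pool 2 exceeded pool 1 for PLIN4 by 0.95 in carcinoma and 1.16 in non-tumor tissue, for LIPE by 0.79 and 1.11, and for PNPLA2 by 0.73 and 1.00. Over all genes the offset had a median of 0.00 in carcinoma and −0.04 in non-tumor tissue, with 90th percentiles of 0.77 and 0.74. In all, 514 genes, or 4.57% of the 11247 with a count in every library, had offsets at least as large as the smallest of these 3 genes in both tissues. CD36 had offsets of −0.29 in carcinoma and −0.14 in non-tumor tissue, and RBP4 had −0.36 and −0.01. ACSL1 and LPL had offsets of 0.11 to 0.28. The dogs of the pools and the depth of the libraries differ together, so they cannot be told apart as sources of these offsets.

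**Figure D4:**
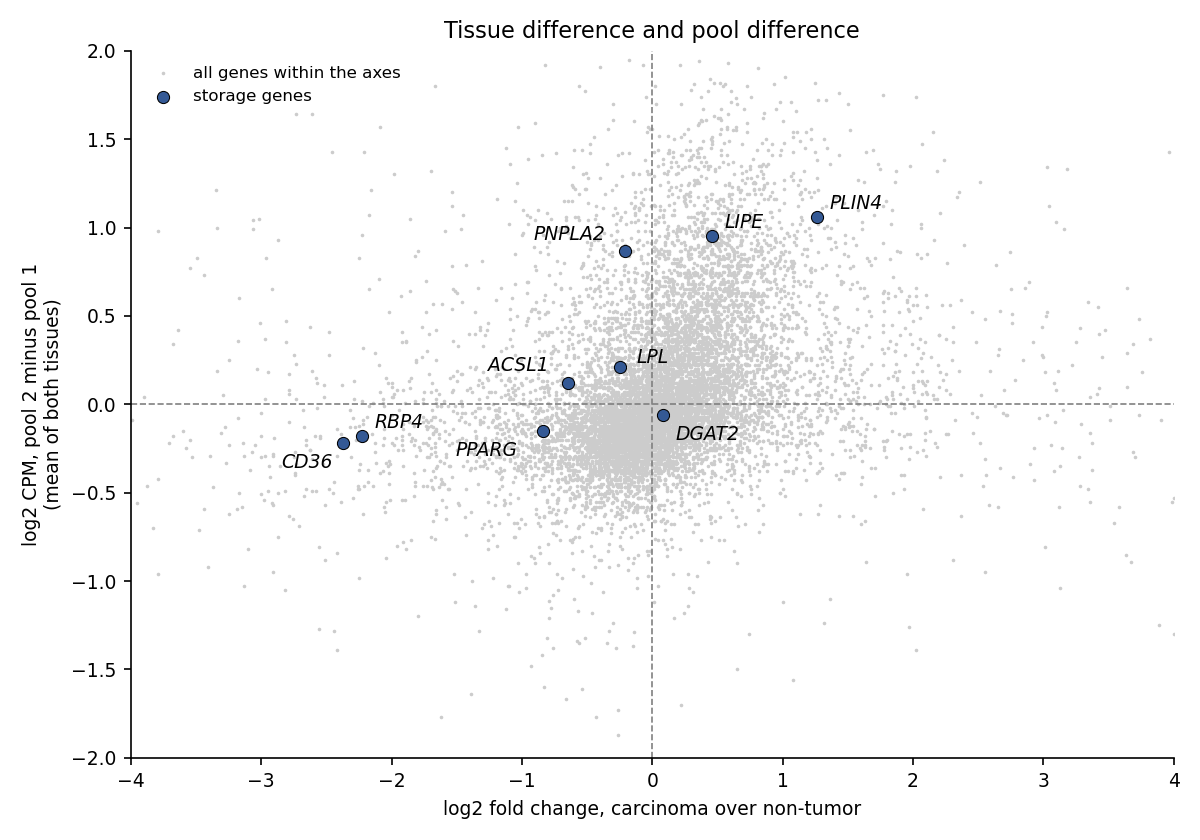
Log2 fold change of carcinoma over non-tumor (x axis) against the log2 difference of pool 2 minus pool 1, averaged over the tissues (y axis), with storage genes in blue and other genes in gray. The axes show 11123 of 11247 genes, 124 lying outside. CD36 and RBP4 lie far left near the horizontal line, and PLIN4, LIPE and PNPLA2 lie high on the pool axis.

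PPARG, the transcription factor of the set, was lower in both carcinoma libraries without passing the test. It had 19.7 CPM in T1 and 21.1 CPM in T2, against 41.0 CPM in C1 and 31.3 CPM in C2, and the tissues did not overlap. PPARG averaged 20.4 ± 0.970 CPM in carcinoma and 36.1 ± 6.85 CPM in non-tumor tissue (SD, n = 2 each), a log2 fold change of −0.84 ± 0.21 (SE, adjusted p = 0.0677). The ratio was 0.482 (95% interval 0.438 to 0.530) in pool 1 and 0.675 (95% interval 0.499 to 0.906) in pool 2, and the difference between the non-tumor pools was larger than that between the carcinoma pools. DESeq2 gave PPARG an adjusted p of 0.0353 and the replicate block one of 1.12e-15, in each case at an absolute log2 fold change below 1.

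RBP4, which carries retinol in blood, was the other storage gene called lower. It had 3.43 CPM in T1 and 2.68 CPM in T2, against 14.9 CPM in C1 and 14.8 CPM in C2. The non-tumor pools were level and both carcinoma pools lay far below them. The log2 fold change was −2.23 ± 0.29 (SE, adjusted p = 0.00997). The ratio was 0.230 (95% interval 0.186 to 0.282) in pool 1 and 0.180 (95% interval 0.0789 to 0.364) in pool 2, where T2 had only 9 counts. Over 4 libraries, RBP4 was the gene with rank 4 among 10128 genes with a symbol by the distance of its centered log2 CPM pattern from that of CD36 (0.172). The 3 genes nearer to CD36 were AREG, AK5 and MMP16, at distances of 0.0918 to 0.119, and AK5 was also the gene nearest to RBP4 (0.0585). PLIN4 was nearest to UNC5B (0.0497). These distances describe 4 libraries and carry no test. The call of CD36 held under all 12 alternatives run and that of RBP4 under the 11 in which it was tested.

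The wider lipid pathway was followed in 11 lists with 162 companion genes, of which 98 were in the tables. The lists too were chosen with earlier results of these data known, so their counts are descriptions. Of the fat cell marker list, 0 genes were in the tables. Of these 98, 13 were called lower and 3 higher, and 82 did not pass, where 5.24% of all genes were called lower and 4.62% higher. Their median log2 fold change was 0.00, against 0.03 for all genes. With the replicate block 16 were called lower and 8 higher, where 6.83% of all genes were called lower and 7.09% higher. Without T1, with no block, 8 were called lower. The genes called lower came from 8 lists. The droplet coat and fatty acid oxidation lists held none, and the fat cell marker list, with no gene measured, could hold none.

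**Figure D5:**
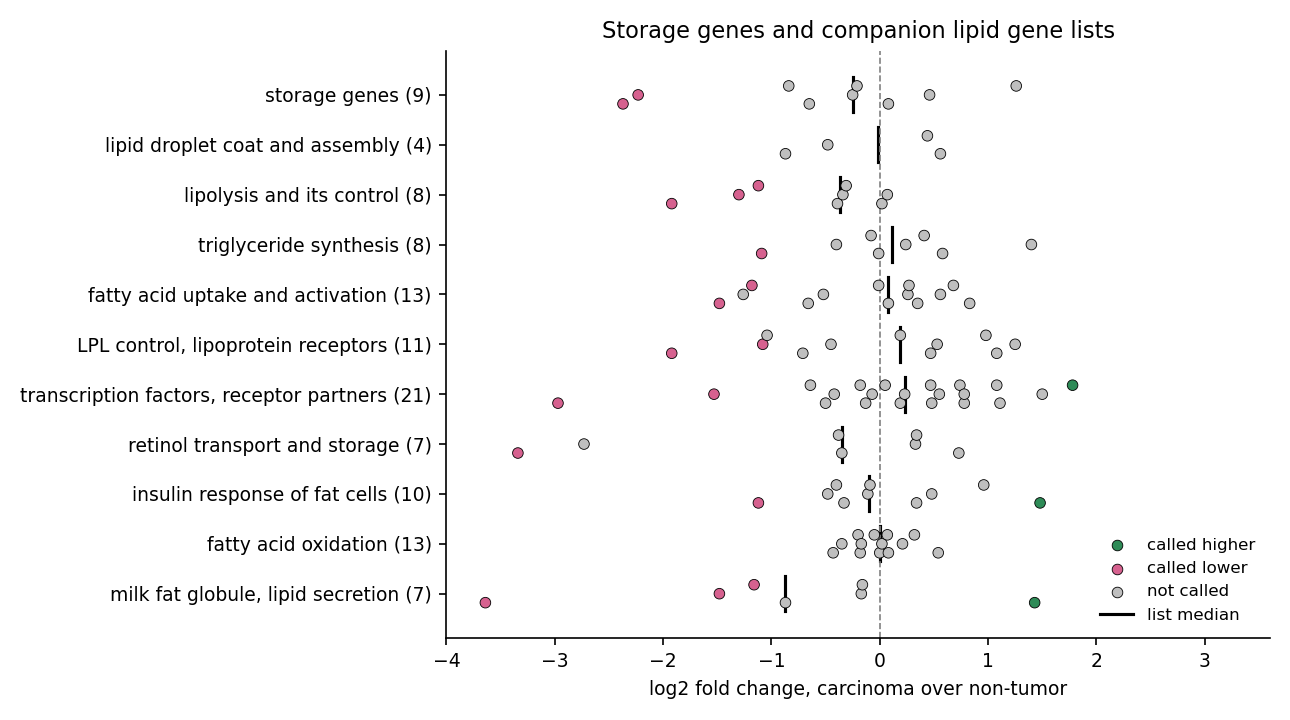
Log2 fold change of carcinoma over non-tumor for the storage genes (top row) and for each companion gene in the tables, by list, with the number of genes in brackets, a black line at the list median, and green or pink for genes called higher or lower. The fatty acid oxidation genes lie within −0.43 and 0.54, and BTN1A1, at −3.64, lies farthest to the left.

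Of 8 genes that control or complete lipolysis, 3 were called lower, where 5.24% of all genes were. MGLL, the lipase that follows LIPE and frees glycerol, had 21.9 CPM in T1 and 26.2 CPM in T2, against 76.3 CPM in C1 and 105 CPM in C2 (log2 fold change −1.92, standard error 0.21, adjusted p = 0.00651). LIPA, the acid lipase of lysosomes, had a log2 fold change of −1.30 ± 0.14 (SE, adjusted p = 0.00623). PDE3B, the phosphodiesterase through which insulin restrains lipolysis, had one of −1.12 (standard error 0.13, adjusted p = 0.00694). These calls held under all 12 alternatives run. ABHD5, the activator of PNPLA2, did not pass, at a log2 fold change of −0.34 (adjusted p = 0.200). The list median was −0.37.

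Among genes of fatty acid uptake and activation, 2 of 13 were called lower, CAV1 and FABP3, where 5.24% of all genes were. The list median was 0.08. CAV1, the caveolin of fat cells and endothelium, had 30.5 CPM in T1 and 26.5 CPM in T2, against 72.1 CPM in C1 and 57.5 CPM in C2. Its log2 fold change was −1.18 ± 0.18 (SE, adjusted p = 0.0162), and leaving out C1 ended the call (adjusted p = 0.0705). FABP3, a fatty acid binding protein of muscle and lactating gland, had a log2 fold change of −1.48 (adjusted p = 0.0278), a call that was lost with any single library left out (adjusted p from 0.0767 to 0.125). Of the other long-chain acyl-CoA synthetases, ACSL3, ACSL4 and ACSL5 had log2 fold changes of 0.26, 0.35 and 0.08, none past the test. SLC27A6, a fatty acid transporter, had −1.26 (adjusted p = 0.112) and was called lower with the replicate block (−1.34, adjusted p = 2.52e-20). With no block, SLC27A6 had −0.80 without C1 (adjusted p = 0.450) and −1.61 without C2 (adjusted p = 0.0481).

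Of 8 triglyceride synthesis genes, 1 was called lower and 0 higher, where 5.24% and 4.62% of all genes were. AGPAT5 was higher with an adjusted p under 0.05, below the fold asked of a call (log2 fold change 0.58, standard error 0.12, adjusted p = 0.0429). Its adjusted p was 0.0615 with DESeq2 and 5.99e-13 with the replicate block. GK, which makes glycerol 3-phosphate from glycerol, was the gene called lower. It had 36.0 CPM in T1 and 38.7 CPM in T2, against 80.6 CPM in C1 and 77.9 CPM in C2 (log2 fold change −1.09, standard error 0.12, adjusted p = 0.00696). GPAM, which adds the first acyl chain, had a log2 fold change of −0.01 (adjusted p = 0.969). LPIN3, a phosphatidate phosphatase, had one of 1.40 (adjusted p = 0.199) and was called higher with the replicate block (1.32, adjusted p = 5.14e-12). With no block, LPIN3 had 0.73 without T2 (adjusted p = 0.637) and 0.82 without C1 (adjusted p = 0.602), against 1.88 without T1 and 1.96 without C2 (adjusted p = 0.0840 and 0.104). Of the 4 droplet genes measured besides PLIN4, none was called by edgeR or DESeq2, where edgeR called 5.24% of all genes lower and 4.62% higher. The list median was −0.02. At an unadjusted p under 0.05, 2 were lower and 1 was higher, and the share of all genes at that threshold is not given here. RAB18, BSCL2 and AUP1 had log2 fold changes of −0.48, 0.44 and 0.56, below the fold asked of a call. PLIN2, the perilipin that coats droplets in most cells, had 60.2 CPM in T1 and 65.7 CPM in T2, against 102 CPM in C1 and 128 CPM in C2 (log2 fold change −0.87, standard error 0.16, adjusted p = 0.0254). The adjusted p of PLIN2 was 0.0838 with plain library totals and 6.72e-04 with DESeq2. With a library left out, its log2 fold change ran from −0.69 (without C2) to −1.08 (without C1). PLIN2 and PLIN4 thus had fold changes of opposite sign. None of 13 fatty acid oxidation genes was called by edgeR or DESeq2, set against the same shares, with a list median of 0.00. Of these genes, 0 had an unadjusted p under 0.05, a threshold at which the share of all genes is not given here.

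Partners of LPL and of PPARG went in both directions. Of 11 measured genes of LPL control and lipoprotein receptors, 2 were called lower and 0 higher, where 5.24% and 4.62% of all genes were. The median of that list was 0.19. LIPG and VLDLR had log2 fold changes of 0.98 and −0.71, neither past the test (adjusted p = 0.216 and 0.107). LIPC, the hepatic lipase, had a log2 fold change of −1.92 (adjusted p = 0.0217), and leaving out T1 or C1 ended the call (adjusted p = 0.0832 and 0.0886). PCSK6, a protease that cleaves LPL, had one of −1.08 (adjusted p = 0.0393), and its call was lost with any single library left out (adjusted p from 0.0800 to 0.226). EBF2, a transcription factor of fat cell precursors, fell, with 16.3 CPM in T1 and 19.6 CPM in T2, against 147 CPM in C1 and 127 CPM in C2 (log2 fold change −2.97, standard error 0.16, adjusted p = 0.00184). PPARGC1B, a coactivator of nuclear receptors and mitochondrial genes, rose, with 64.6 CPM in T1 and 93.1 CPM in T2, against 19.0 CPM in C1 and 27.4 CPM in C2 (log2 fold change 1.78, standard error 0.28, adjusted p = 0.0165). NR1H3, the oxysterol receptor LXR alpha, had −1.53 (adjusted p = 0.0421), a call also lost with any single library left out (adjusted p from 0.0744 to 0.175). RXRA, the binding partner of PPARG, had 0.23 (adjusted p = 0.836). In the list of transcription factors and receptor partners, 1 of 21 measured genes was called higher and 2 lower, where 4.62% and 5.24% of all genes were. The list median was 0.23.

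Of the retinol genes around RBP4, RBP7 was the 1 of 7 called lower, where 5.24% of all genes were. RBP7, a cellular retinol binding protein of fat and capillaries, had 0.572 CPM in T1 and 1.19 CPM in T2, against 8.50 CPM in C1 and 5.33 CPM in C2, with 20 and 4 counts in the carcinoma libraries (log2 fold change −3.34, standard error 0.50, adjusted p = 0.0153). Its adjusted p was 0.0676 without T1. STRA6, the membrane receptor of RBP4, had 0.715 CPM in T1 and 2.68 CPM in T2, against 4.74 CPM in C1 and 12.3 CPM in C2. The carcinoma libraries were lower, but the pools differed widely, and STRA6 did not pass (log2 fold change −2.73, standard error 0.84, adjusted p = 0.107). It was called lower by DESeq2 (adjusted p = 0.0264), with the replicate block (adjusted p = 1.07e-16) and without T2 (−3.49, adjusted p = 0.0106). Its log2 fold change was −1.63 without T1 (adjusted p = 0.253), −1.95 without C2 (adjusted p = 0.167) and −3.43 without C1 (adjusted p = 0.0545). The retinol-processing genes LRAT, RDH10 and ALDH1A1 had log2 fold changes of −0.35, 0.33 and −0.38, none past the test.

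The milk fat list had the lowest median of the companion lists, −0.87 over 7 measured genes. Of these, 3 were called lower and 1 higher, where 5.24% and 4.62% of all genes were. BTN1A1, the butyrophilin of the milk fat globule membrane, had 6.75 CPM in T1 and 8.62 CPM in T2, against 77.1 CPM in C1 and 108 CPM in C2 (log2 fold change −3.64, standard error 0.26, adjusted p = 0.00259). XDH, which binds butyrophilin at that membrane, had a log2 fold change of −1.16 ± 0.12 (SE, adjusted p = 0.00593), and FABP3 was the third. MFGE8, a globule protein also made by macrophages, rose, with 213 CPM in T1 and 293 CPM in T2, against 79.3 CPM in C1 and 109 CPM in C2 (log2 fold change 1.43, standard error 0.23, adjusted p = 0.0193). SCD and ACACA, enzymes of fatty acid synthesis, had −0.17 and −0.16 and did not pass. In the insulin response list, 1 of 10 measured genes was called higher and 1 lower, set against the same shares. PDE3B was the gene called lower. PIK3R1, the regulatory subunit of phosphoinositide 3-kinase, rose, with 900 CPM in T1 and 798 CPM in T2, against 340 CPM in C1 and 268 CPM in C2 (log2 fold change 1.48, standard error 0.16, adjusted p = 0.00650). TBC1D4 was higher just short of the fold asked of a call, with 211 CPM in T1 and 184 CPM in T2, against 105 CPM in C1 and 97.8 CPM in C2. Its log2 fold change was 0.96 (standard error 0.13, adjusted p = 0.0100).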

How the data were processed

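Total RNA had been sequenced in 4 libraries, 2 for carcinoma and 2 for non-tumor tissue. The deposited counts per gene are not normalized. TopHat2 mapping and HTSeq counting are named in the methods of the paper, and the submitters' processing notes name STAR and featureCounts. The gene lengths in the tables (unit other) were used only for the comparison with RefSeq spans (UU_Cfam_GSD_1.0). The main test was the quasi-likelihood test of edgeR 4.0.16 under R 4.3.3, after filterByExpr and TMM. DESeq2 1.42.0 served as an alternative, and pattern distances used log2 CPM with 2 prior counts. All 11277 genes passed the filter. Each standard error is |log2 fold change|/√F. Ratios within pools have exact (Clopper-Pearson) intervals, computed in scipy 1.17.1.

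The members and lists were chosen with earlier results of these data known. Named genes were the storage genes, up to 4 genes of each companion list with the smallest adjusted p, and the 3 genes nearest in pattern. ABHD5, ACSL3, ACSL5, GPAM, RXRA, LRAT, SCD and ACACA, and the neighbors of PLIN4, were added for their roles or positions after values were seen. Same-numbered libraries share dogs by the study's account, and their deviations from the tissue means correlated at 0.782 across genes. Common dispersion was 0.0508 in the fit lacking the block and 0.00216 in the blocked fit. Alternatives were other scalings, filters, DESeq2, the block, thinning to the smallest total, and leaving out each library, where the lone library is assumed to vary like the other tissue's.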

Additional observations from a re-analysis of the deposited data

Results flagged for a closer look

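DGAT2 was the storage gene whose pools moved in opposite directions, with a log2 ratio of carcinoma to non-tumor of 0.38 in pool 1 and −0.47 in pool 2. The difference between the pools was not tested, T2 held 9 counts of DGAT2, and the counting intervals of both ratios include equal levels.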

How the results depend on the processing

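Across the 12 alternatives, the 9 storage genes gave 106 fold changes, of which 99 kept their direction and their side of the call, 2 (both of PLIN4) passed it and 5 changed sign. Those 5 came from leaving out a library in genes that were not called, with ranges of −0.29 to 0.23 for DGAT2, −0.74 to 0.32 for PNPLA2 and −0.12 to 1.05 for LIPE. When every library had to hold 10 counts of a gene, 1 storage gene was called, lower, since that filter removes RBP4 and DGAT2. With the replicate block, in which same-numbered libraries are paired, 1 storage gene was called higher, and 0 to 1 were with a library left out. The block called 8 companion genes higher, and 8 to 11 were called lower with a library left out. Of 454 fold changes of named companion genes, 424 stayed on their side of the call, called or not, and none changed sign. A call was lost in 21 and gained in 9. Only genes called in the main fit could lose a call, and the losses fell on CAV1, FABP3, LIPC, PCSK6, NR1H3 and RBP7. The block changed the call of PLIN4 and no other storage gene. The summed difference of −0.81 became −0.25 as a median over genes, in which CD36 has no more weight than DGAT2. The median pool offset of the storage genes, 0.20, was 0.35 with plain library totals. The cause was not tested. In T2, where 3 counts amount to 0.892 CPM, DGAT2 and RBP4 had 9 counts each, so modest differences in them are beyond this depth.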
